A study of Mus musculus with 5 samples.

Results

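The short 3′ UTR intervals described here are the stretches of 300 bases or less on which SLAMseq reads of mouse cardiac fibroblasts (CF) were counted. They were chosen by length alone and number 12816 of the 40428 distinct intervals, on 8277 gene names. Their median length was 108 bases, so that they made up 31.7% of the intervals but 3.04% of the counted bases. They were compared with the 23171 middle-length intervals of 301 to 2999 bases. CF had been obtained from hearts of healthy adult male C57Bl/6J wildtype mice by collagenase perfusion on a Langendorff apparatus, and were kept in culture up to confluency. In the labeled group (3 libraries), CF were then incubated with 0.1 mM 4-thiouridine (S4U) for 12 h. In the unlabeled group (2 libraries), CF were incubated for the same 12 h without S4U. RNA of both groups was alkylated and sequenced from the 3′ end, and the study's methods give 3 CF preparations for SLAMseq. Cells in culture are a limited model of CF in the heart.

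S4U is a uridine analog that cells build into new RNA, and once alkylated it pairs so that sequencing reports a C at the position of a T. The T>C conversion rate of an interval, its conversions per covered T position, is therefore higher where more of a transcript was made during labeling. The 3′ UTR of an mRNA carries the polyadenylation signal, usually AAUAAA or AUUAAA, a short distance before the cleavage site, and often elements that set the stability of the mRNA, such as AU-rich elements built around AUUUA. Housekeeping mRNAs, among them those of ribosomal proteins and respiratory chain subunits, are known for short 3′ UTRs and long half-lives.

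The libraries were made from the 3′ ends of transcripts, and the following 30 bases are the last bases of 4 short intervals with a low T>C rate, with the polyadenylation hexamer in capitals. They lie at chr1:43781695-43781724 (plus strand), chr7:19430195-19430224 (minus), chr2:148713642-148713671 (minus) and chr17:57510973-57511002 (minus) of GRCm39. All sequences are given 5′ to 3′ on the strand of the gene, as DNA.
Ecrg4: tctcacttaaaaatagaAATAAAagcattt
Apoe: cccttgcttAATAAAgattctccgagcaca
Cst3: gctcaATTAAAaaaaaaaaactcctttggc
C3: gccctctAATAAAgcttcagttgtatttca

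The ends of 3 short intervals with a high T>C rate are shown for comparison, at chr11:81928249-81928278 (plus strand), chr11:70868672-70868701 (minus) and chr11:22953307-22953336 (plus). Capitals mark the copy of the hexamer nearest to the end, and the window of *C1qbp* holds another copy before it.
Ccl2: ATTAAAagaaatatattatttttgtacacc
C1qbp: gacaataaatctgactccAATAAAtctcca
Cct4: gaaaacATTAAAtacttggttttaaactcc

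A last set shows how an ATTTA looks in a short interval, again in capitals, in 30 bases at chr11:81928031-81928060 (plus strand) and chr10:116886981-116887010 (minus), where the latter holds 2 overlapping copies.
Ccl2: taatattaaacttATTTAacttattgatgt
Cct2: acatgggtctaATTTATTTActgtttcatt

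With 1 interval per gene name, the counted reads ranged from 506072 to 1842824 between libraries. The 10 CF markers were read in every library and together had 41861 to 45444 CPM relative to counted reads in the labeled and 34449 to 37382 in the unlabeled libraries. Macrophage markers (8 genes) reached 168, endothelial markers (5 genes) 221, cardiomyocyte markers (6 genes) 8.03 and smooth muscle and pericyte markers (4 genes) 13.8 in any library. Within a group, no library was a copy of another, since the chi-square of 2 libraries of a group, divided by its degrees of freedom, was 2.78 or more and up to 24.2.

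Most short intervals were not read. No read was counted in any of the 5 libraries on 7937 of the 12816, and 4879 (38.1%) had at least 1 read, against 75.9% of the middle-length intervals. Of the short intervals, 2979 were read in every labeled library, and 2845 had at least 1 covered T in all 5 libraries. Olfactory receptor genes, which are used by sensory neurons of the nose, accounted for 211 short intervals, 209 of them without a read. Of 88 short intervals of histone genes, 73 had no read. Many histone mRNAs end in a stem-loop and carry no poly(A) tail. By contrast, 4 of 94 short intervals of cytosolic ribosomal proteins and 8 of 104 of the respiratory chain and ATP synthase had no read.

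The sequences and exons differed between the unread short intervals and those with reads. AATAAA or ATTAAA, searched on the sense strand in the last 50 bases, was found in 45.6% of all short intervals on reference chromosomes, in 31.0% of those without a read and in 69.4% of those with one. Of the short intervals without a read, 47.8% lay within a last exon of a gene of that name, against 84.4% of those with a read. A gene of that name was annotated for 11772 of the 12816 short intervals, and the others count as outside a last exon. The middle-length intervals held a hexamer in 74.3% of all cases. A missing hexamer says only that these letters are not in the window.

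The short intervals took a share of 11.9%, 13.7% and 12.6% of the reads in labeled replicates 1, 2 and 3. In unlabeled replicates 1 and 2 the share was 12.3% and 12.0%. The share was 12.7% ± 0.875 (SD, n = 3) in the labeled libraries, and the groups overlapped (exact permutation test, two-sided, p = 0.5). With 3 libraries against 2, the smallest p possible in such a test is 0.1.

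T>C conversions were judged against S4U-free CF on the 2845 short intervals where all 5 libraries covered at least 1 T. The T>C rate was higher in the labeled libraries for 2519 of them (88.5%) and lower for 0 (beta-binomial likelihood-ratio test, two-sided, unadjusted p below 0.05). Of all 19240 intervals tested, 94.6% were called higher, and of the middle-length intervals 95.5%. The lower share of the short intervals came with lower coverage, whose part was not tested. At 1000 covered T positions in every labeled library, 283 of 284 short and 2206 of 2207 middle-length intervals were called higher.

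These 284 short intervals, of 242 gene names, carry the comparisons of the T>C rate that follow, and they are 2.22% of the short intervals, where 9.52% of the middle-length intervals were covered as deeply. They had at least 37 reads in every labeled library and a median length of 185 bases. Their median reads were 318, 281.5 and 106.5 in labeled replicates 1, 2 and 3, more than the 268, 202 and 86 of the middle-length intervals with this coverage. The annotation gave 272 as protein coding, and 256 lay within a last exon. Of the 284, 105 overlapped another counted interval of the same gene, so that these are not separate measurements. A gene of another name overlapped 29 on the same strand and 67 on the opposite strand. The annotation held the interval's own gene name for 277. For the others, an overlapping gene on the same strand may be the same gene under another symbol.

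At this coverage, the short intervals had a lower median T>C rate than the middle-length intervals in each labeled library. The median rate of the 284 short intervals was 0.0298, 0.0326 and 0.0328 in labeled replicates 1, 2 and 3. The median of the 2207 middle-length intervals was 0.0382, 0.0394 and 0.0391. The medians of the short intervals thus lay below all 3 medians of the middle-length intervals. The difference, short minus middle-length, was −0.00716 ± 0.00113 (SD, n = 3). In unlabeled replicates 1 and 2 it was −0.000202 and −4.93e-05 (exact permutation test, two-sided, p = 0.1, the smallest possible). This test says little about length, since the control medians themselves were 0.000378 and 0.000327 for the short and 0.000580 and 0.000377 for the middle-length intervals, too low for a difference of the labeled size. Requiring 500 covered T positions in place of 1000 gave −0.00370 over 609 short intervals. In the share of reads with at least 1 conversion, the median short interval had 35.7%, 42.5% and 41.3% in the labeled libraries and the median middle-length interval 50%, 55.8% and 55.2%. This share also depends on the T positions that a read covers, of which a read on a short interval had 17.1, 18.4 and 18.5 on average and one on a middle-length interval 19.0, 21.5 and 21.8.

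**Figure D1:**
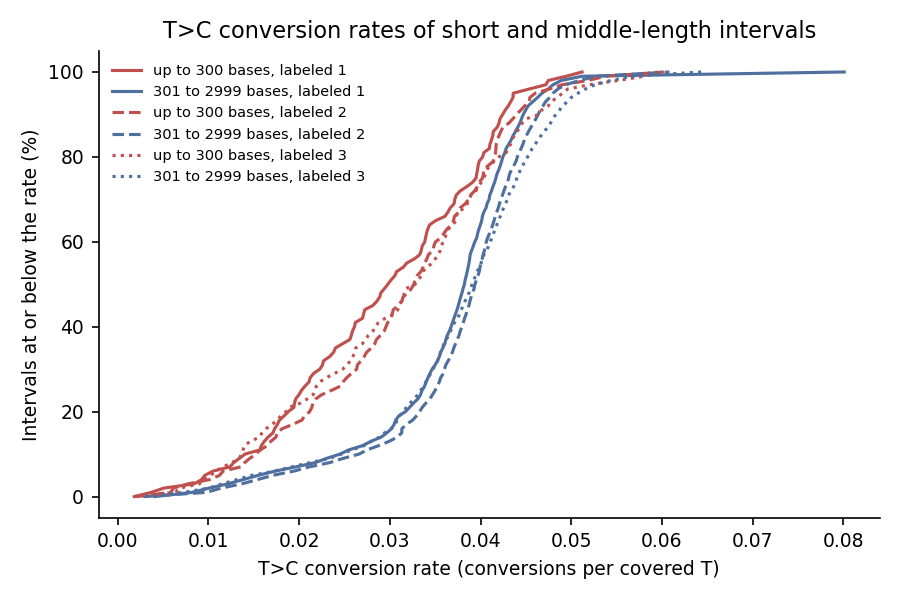
Cumulative share of intervals (y axis, %) at or below a T>C conversion rate (x axis, conversions per covered T) in each of the 3 labeled libraries, for 284 short (red) and 2207 middle-length intervals (blue) with at least 1000 covered T positions. The red curves rise earlier and more slowly than the blue ones, with quartiles of the interval means at 0.0224 and 0.0395 against 0.0351 and 0.0425.

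The short intervals also varied more among themselves. The quartiles of their mean rates were 0.0224 and 0.0395, an interquartile range of 0.0172. For the middle-length intervals the quartiles were 0.0351 and 0.0425, a range of 0.00746. The upper parts of both distributions lay close together and the lower parts lay apart. A mean rate under 0.02 was found for 61 short intervals (21.5%) and for 6.98% of the middle-length intervals. The median SD between the labeled libraries was 0.00296 for a short and 0.00313 for a middle-length interval, so that the spread of single intervals between libraries was similar.

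Each interval was then compared with the median log odds of conversion of the middle-length intervals in the same library. Of the 284 short intervals, 149 (52.5%) lay below this median and 14 (4.93%) above it (limma, Benjamini-Hochberg adjusted p below 0.05 over all 3182 intervals tested). Of all intervals tested, 18.8% were below and 7.7% above, and of the middle-length intervals alone 18.1% and 8.16%. Without labeled replicates 1, 2 and 3, the short intervals above numbered 3, 5 and 8, and those below 108, 135 and 147. Over all 3182 intervals, the 245 above fell to 50, 111 and 159 and the 598 below to 425, 536 and 571. By position alone, 173 short intervals (60.9%) lay below the median in every labeled library, against 29% of the middle-length intervals.

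The rate was not the same along the short lengths. The 15 deeply covered intervals of 1 to 50 bases had medians of 0.0215, 0.0221 and 0.0217 in labeled replicates 1, 2 and 3. The 31 intervals of 51 to 100 bases had medians of 0.0224, 0.0269 and 0.0248. Both classes lay below every other length class in all labeled libraries, and in them 93.3% and 83.9% of the intervals were called below the middle-length median. From 101 to 150 bases (63 intervals) the median of the interval means was 0.0350, from 151 to 200 bases (51) also 0.0350, from 201 to 250 bases (57) 0.0302 and from 251 to 300 bases (67) 0.0365. The rate of the short intervals therefore did not rise evenly with length, since the class of 201 to 250 bases was below its neighbors in each labeled library. The next lengths above the threshold, 301 to 400 bases, had a median of 0.0373, and 2001 to 2999 bases had 0.0398. Just inside the threshold, 13 intervals of 291 to 300 bases had a median of 0.0421, and just outside, 12 of 301 to 310 bases had 0.0353.

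Of the 15 intervals of 1 to 50 bases, 13 belonged to a gene of the class lists below, most of them ribosomal proteins, and the median of those in no class was 0.00668, which rests on the overlapping pair of *C3* intervals. A read covered fewer T positions in the shortest intervals, with means of 11 to 11.3 per read in the 3 labeled libraries, against 19.7, 21.7 and 21.3 from 251 to 300 bases. Among intervals with at least 15 covered T positions per read, a filter chosen after the data were seen, the difference of short minus middle-length was −0.00416 ± 0.000420 (SD, n = 3; 185 short intervals).

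**Figure D2:**
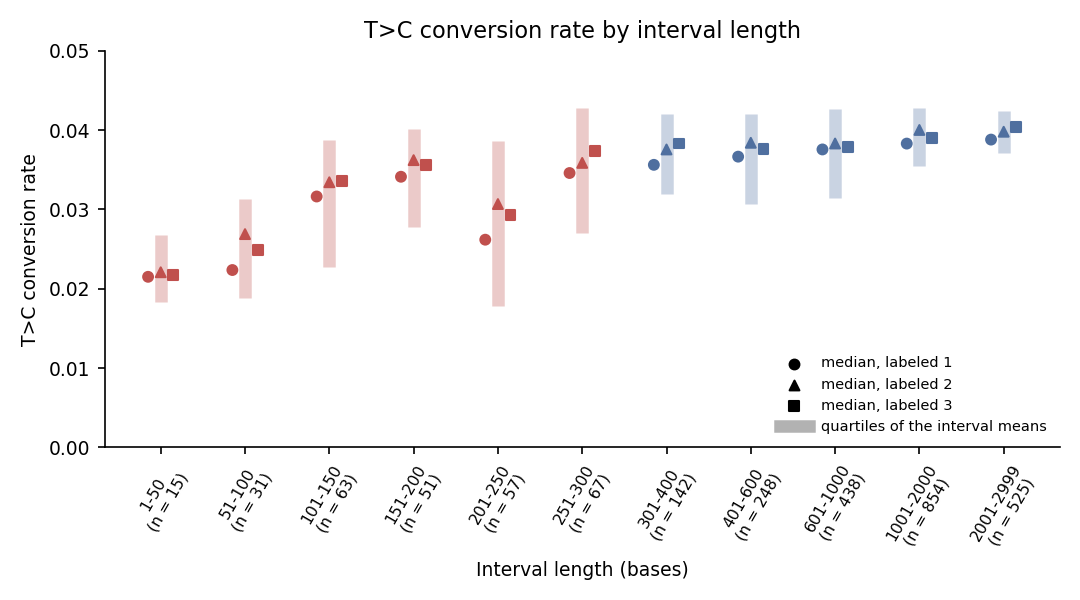
T>C conversion rate (y axis) by interval length in bases (x axis, with the number of intervals); symbols are the medians in labeled replicates 1, 2 and 3 and bars the quartiles of the interval means, red up to 300 bases and blue above. The classes up to 100 bases sit lowest, between 0.0215 and 0.0269, and the class of 201 to 250 bases sits below both of its neighbors.

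The difference between short and middle-length intervals went with the number of reads. With 500 or more reads per labeled library on average, 56 short and 305 middle-length intervals differed by −0.00863 ± 0.000889 (SD, n = 3) in their median rate. With 200 to below 500 reads (118 short), the difference was −0.0102 ± 0.00125. With 100 to below 200 reads (86 short), it was −0.00495 ± 0.000624. With 50 to below 100 reads (24 short), it was −0.00145 ± 0.00158 and thus within the spread between libraries, of which labeled replicate 1 had the opposite sign. After the data were seen, the bands were extended to intervals with at least 20 reads and 200 covered T positions in every labeled library. There, 301 short intervals with 50 to below 100 reads differed by −0.000962 ± 0.00178 and 114 with 20 to below 50 reads by −0.00039 ± 0.00219. In these bands a lower rate of the short intervals was not detectable beyond the spread between libraries.

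**Figure D3:**
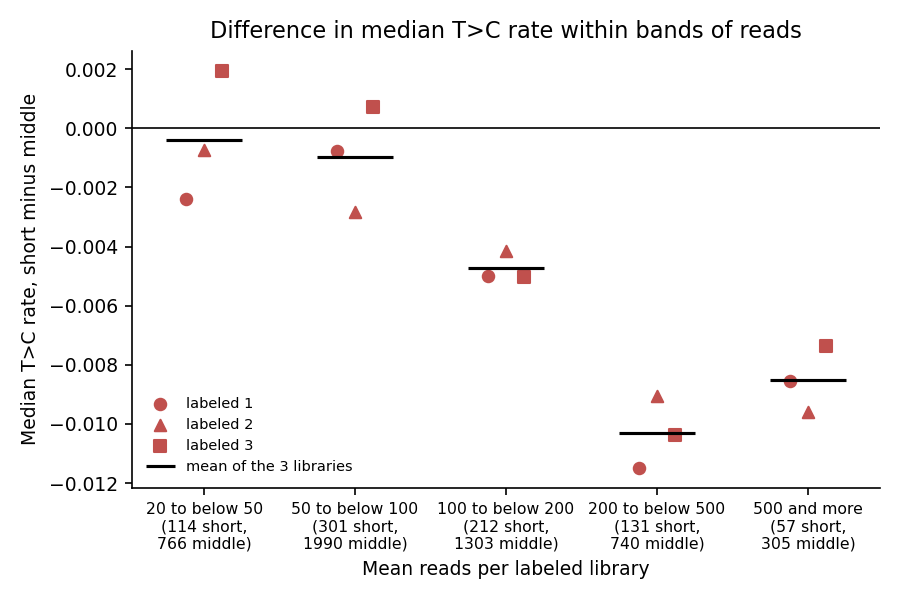
Median T>C rate of short minus middle-length intervals (y axis) within bands of mean reads per labeled library (x axis), for intervals with at least 20 reads and 200 covered T positions in every labeled library. Symbols are the 3 labeled libraries and bars their mean, which goes from −0.00039 at the fewest reads to −0.0103 at 200 to below 500 reads.

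Among the deeply covered short intervals, the 10 lowest rates belonged to 8 genes. *Ecrg4* (ENSMUSG00000026051.10), the precursor of the secreted peptide augurin, was read on 158 bases in the last exon, at chr1:43781567-43781724 (plus strand), opposite the annotated gene Gm29155. Its T>C rate was 0.00181, 0.00206 and 0.00184 in labeled replicates 1, 2 and 3. The controls had 0.00155 in unlabeled replicate 1 and 0.000768 in unlabeled replicate 2. All labeled libraries were above the controls, but by less than a call required (beta-binomial likelihood-ratio test, p = 0.159). It was the only short interval of the 284 that was not called higher with S4U.

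*Apoe* (ENSMUSG00000002985.18), the apolipoprotein E of lipid transport, was read on a pair of overlapping intervals in the last exon, the longer one at chr7:19430169-19430304 (minus strand). On this interval the T>C rate was 0.00253, 0.00612 and 0.00666 in the labeled libraries, and no conversion was seen in the controls, where the covered T positions limit the rate to 0.000841 in replicate 1 and 0.000396 in replicate 2. *Cst3* (ENSMUSG00000027447.8), the secreted protease inhibitor cystatin C, had 0.00507, 0.00617 and 0.00486 on 238 bases at chr2:148713642-148713879 (minus strand), from 7695 to 38926 covered T positions. Both genes stayed far below the middle-length median in every labeled library, and the rate of *Apoe* differed more between libraries than that of *Cst3*.

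*C3* (ENSMUSG00000024164.17), the central component of complement, was read on overlapping intervals of 40 and 46 bases at the end of its last exon, opposite Gm65552. The interval of 46 bases, at chr17:57510967-57511012 (minus strand), has 13 T positions and had rates of 0.00507, 0.00575 and 0.00923. *Hp*, the hemoglobin binding haptoglobin, had 0.00393, 0.00631 and 0.0107 on 143 bases. *Serping1*, the C1 inhibitor of the complement system, had 0.0102, 0.00877 and 0.00908 on 214 bases. *Tmem176a* at 0.00725 ± 0.00267 (SD, n = 3) and *Cpq*, a carboxypeptidase, at 0.00819 ± 0.00124 were the other genes among the 10 lowest intervals. All 10 were called below the middle-length median by limma. They were chosen by the same labeled rates that limma tested, so these calls are no separate support. The rates of *Ecrg4*, both *Apoe* intervals, *Hp* and both *C3* intervals were lowest in labeled replicate 1.

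The 10 highest rates belonged to 10 genes. *Snrpd3* (ENSMUSG00000020180.12), an Sm protein of the spliceosome, had rates of 0.0512, 0.0602 and 0.0483 on 118 bases at chr10:75371157-75371274 (plus strand), from 1036 to 4864 covered T positions. *Ccl2* (ENSMUSG00000035385.6), a chemokine that attracts monocytes, had 0.0496, 0.0533 and 0.0542 on 274 bases at chr11:81928005-81928278 (plus strand). *C1qbp* (ENSMUSG00000018446.10), a protein of the mitochondrial matrix, had 0.0494, 0.0466 and 0.0579 on 249 bases at chr11:70868672-70868920 (minus strand), opposite Rpain. In all labeled libraries these 3 were above the middle-length median. *Ccl2* varied least of them, with 0.0524 ± 0.00246 (SD, n = 3), and its log2 odds exceeded the median by 0.44 (standard error 0.051, limma adjusted p = 8.02e-05).

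*Cct4* and *Cct2*, subunits of the cytosolic chaperonin TRiC, had mean rates of 0.0502 ± 0.00780 and 0.0494 ± 0.00514 (SD, n = 3). *Mtarc2*, *Mtch2* and *Atp5pb*, which code for mitochondrial proteins, had 0.0492 ± 0.00873, 0.0480 ± 0.00416 and 0.0479 ± 0.00365. These 5 were called above the middle-length median, as were *Snrpd3*, *Ccl2* and *C1qbp*. The highest intervals, too, were chosen by the labeled rates that limma tested. Their calls and the adjusted p of *Ccl2* are thus no separate support. *Psma6*, a proteasome subunit, had 0.0367, 0.0558 and 0.0570 and *Hspe1*, the mitochondrial chaperonin HSP10, 0.0426, 0.0441 and 0.0595. Neither passed (limma adjusted p = 0.0924 and 0.0628), and labeled replicate 1 of *Psma6* was below the middle-length median. The interval of *Hspe1* lies opposite *Hspd1*.

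**Figure D4:**
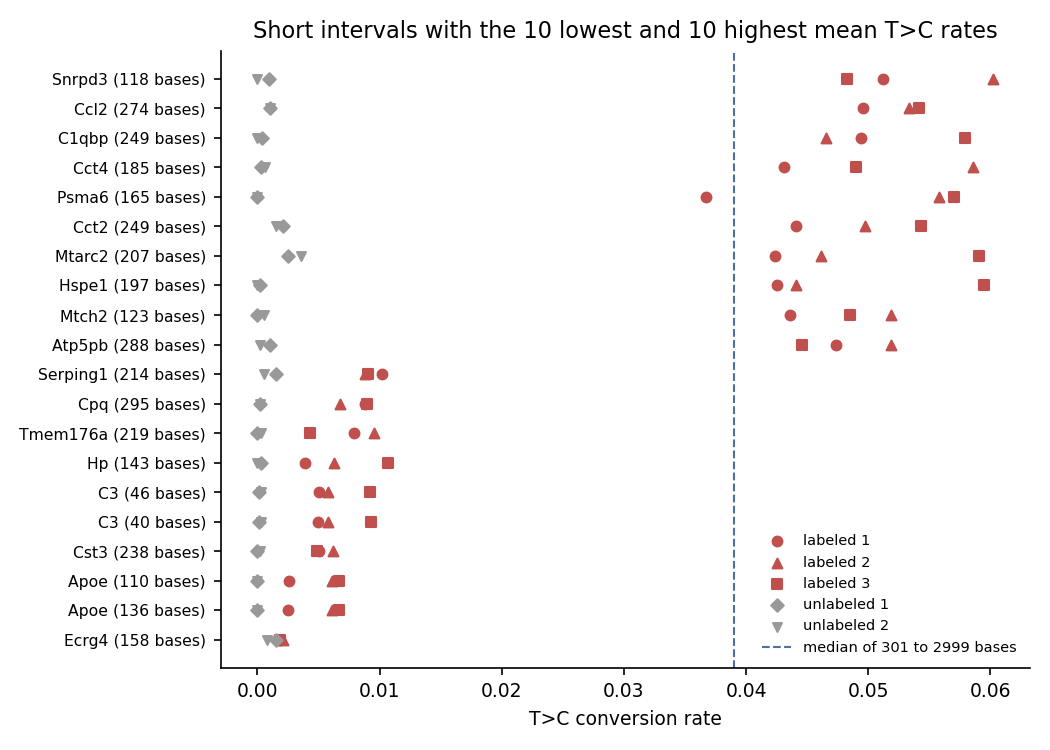
T>C conversion rate (x axis) of the short intervals with the 10 lowest and the 10 highest mean rates, with each labeled (red) and unlabeled (gray) library as a symbol; the dashed line is the median of the middle-length intervals, 0.0390. In the labeled libraries the lowest intervals reach at most 0.0107 and the highest are at least at 0.0367.

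Ribosomal protein genes, whose products build the ribosome, are mostly short intervals here, with 94 of them or 79.7% of the short and middle-length intervals of the class. Of the 27 deeply covered ones (22 genes), 22 were below the middle-length median and 2 above, with a median rate of 0.0250. Their 12 middle-length counterparts had a median of 0.0213, with 10 below. Short minus middle-length was 0.00299 ± 0.00409 (SD, n = 3), a difference within the spread. It was positive in each labeled library, at 0.000310, 0.000954 and 0.00769 in replicates 1, 2 and 3. *Rplp1* (ENSMUSG00000007892.10), a protein of the ribosomal stalk, had 0.00915, 0.00988 and 0.00908 on 41 bases at chr9:61820565-61820605 (minus strand). *Rpl4* had 0.0335, 0.0376 and 0.0368 on the longer of its overlapping intervals and did not pass (limma adjusted p = 0.0912). Both intervals above the median were of *Rps27l*, a paralog of Rps27, at 0.0455 ± 0.00346 and 0.0456 ± 0.00345, named after its values were seen. Ribosomal protein genes have many near-identical copies in the genome, so their reads are less certain. The highest rates without S4U among the 284 were 0.0140 and 0.0107 in unlabeled replicates 1 and 2, on *Rps27rt*, a near-identical copy of Rps27, which had 0.0230 ± 0.00507 (SD, n = 3) in the labeled libraries and was also named after its values were seen.

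Genes of the respiratory chain and ATP synthase, which make ATP in mitochondria, fell apart by length. The 26 short intervals (21 genes) had a median rate of 0.0267, with 18 below the middle-length median and 1 above, and ranged from 0.0108 to 0.0479. The 11 middle-length intervals of the class had a median of 0.0394, with 3 below and 1 above. Within the class, the short intervals were lower in each labeled library, by −0.0131 ± 0.00322 (SD, n = 3). The lowest was *Atp5e*, the ε subunit of the ATP synthase, at 0.0108 ± 0.00233, and the highest *Atp5pb*, a subunit of its peripheral stalk, at 0.0479 ± 0.00365. *Atp5e* was named after its values were seen. *Atp5g3*, which codes for the c subunit of the ring, had 0.0396 ± 0.00289 on its shorter interval.

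Translation factors had 5 deeply covered short intervals of 4 genes, and all 5 were below the middle-length median, from 0.0218 to 0.0310. They include the overlapping intervals of *Eif3h*, which are not separate measurements. Of 16 middle-length intervals of the class, 3 were below and 2 above, and of all 284 short intervals 52.5% were below. *Eef1a1* (ENSMUSG00000037742.16), which brings aminoacyl-tRNA to the ribosome, had 0.0202, 0.0235 and 0.0215. Its interval spans 281 bases at chr9:78385735-78386015 (minus strand) and overlaps Gm26377 on the same strand. The initiation factor subunits *Eif3h*, at 0.0268 ± 0.00155 on the longer of its intervals, and *Eif3i*, at 0.0310 ± 0.00218, were the others with the most covered T positions. Short minus middle-length (16 intervals) was −0.0105 ± 0.00116 (SD, n = 3) in this class. Of 7 short intervals of S100 proteins and annexins, which bind calcium, 6 were below the median and *Anxa1*, at 0.0447 ± 0.00178, was above. Of 7 middle-length intervals of these genes, 1 was below and 0 above, and the difference of short minus middle-length was −0.0107 ± 0.00167.

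Extracellular matrix genes were low in both length classes. The 8 short intervals (6 genes) had a median of 0.0189, and 6 were below the middle-length median. The 66 middle-length ones had a median of 0.020, with 58 below. Short minus middle-length was −2.70e-05 ± 0.000613 (SD, n = 3), within the spread. *Mmp3*, a secreted metalloprotease, had 0.0152, 0.0206 and 0.0208, while *Mgp*, the matrix Gla protein that inhibits calcification, had 0.0285, 0.0314 and 0.0308. *Timp1*, an inhibitor of metalloproteases, had 0.0397, 0.0445 and 0.0443 on both of its overlapping intervals and did not pass (limma adjusted p = 0.0681).

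For proteasome subunits, chaperones and solute carriers, the median of the short intervals was not below that of the middle-length ones in every labeled library, and metallothioneins and ferritins had 0 middle-length intervals to compare with. Of 10 short intervals of proteasome subunits (9 genes), 0 were called in either direction by limma, with 1 above and 1 below among 7 middle-length intervals, and the class difference of −0.00468 ± 0.00457 (SD, n = 3) was close to the spread. The 8 short intervals of heat shock proteins and chaperones had a median of 0.0402, with *Cct2* and *Cct4* above and *Hsp90b1*, the chaperone of the endoplasmic reticulum, below at 0.0257 ± 0.00213. Of 16 middle-length intervals of this class, 2 were above and 2 below. *Hsp90ab1*, the cytosolic HSP90, had 0.0389 ± 0.00162. The 5 solute carriers, among them the ADP/ATP carriers *Slc25a4* at 0.0408 ± 0.00313 and *Slc25a5* at 0.0419 ± 0.00496, had a median of 0.0373 and no call. Of 24 middle-length intervals of solute carriers, 1 was above and 4 below. The metallothioneins *Mt1* and *Mt2*, which bind zinc and copper, had 0.0359 ± 0.00143 and 0.0382 ± 0.00394 and no call. *Fth1*, the heavy chain of ferritin, was below at 0.0300 ± 0.00108.

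Other classes had few deeply covered short intervals. Of the 2 mitochondrial ribosomal proteins, *Mrpl33* was below at 0.0277 ± 0.00279 (SD, n = 3) and *Mrpl53* had 0.0386 ± 0.00521 and no call. Among cathepsins and lysosomal genes, whose list also holds cystatins, *Hexa*, a subunit of the lysosomal hexosaminidase, was below at 0.0139 ± 0.00264, as was *Cst3*, and the cystatin *Cstb* had 0.0413 ± 0.000480 and no call. The overlapping pair of *Snrpb*, another Sm protein, had 0.0431 and 0.0432 and no call, and *Ccl2* was the single interval of chemokines and interleukins. Histones, Zfp zinc finger genes, immediate early genes, small GTPases and olfactory receptors had 0 short intervals with this coverage.

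The class lists hold 108 of the 284 short intervals. The 176 in no class had a median of 0.0332, with 87 below the middle-length median and 6 above, and differed from 1950 middle-length intervals in no class by −0.00634 ± 0.000570 (SD, n = 3). Leaving out only ribosomal, respiratory chain and matrix genes, a choice made after the data were seen, gave −0.00515 ± 0.000726 over 223 short intervals.

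**Figure D5:**
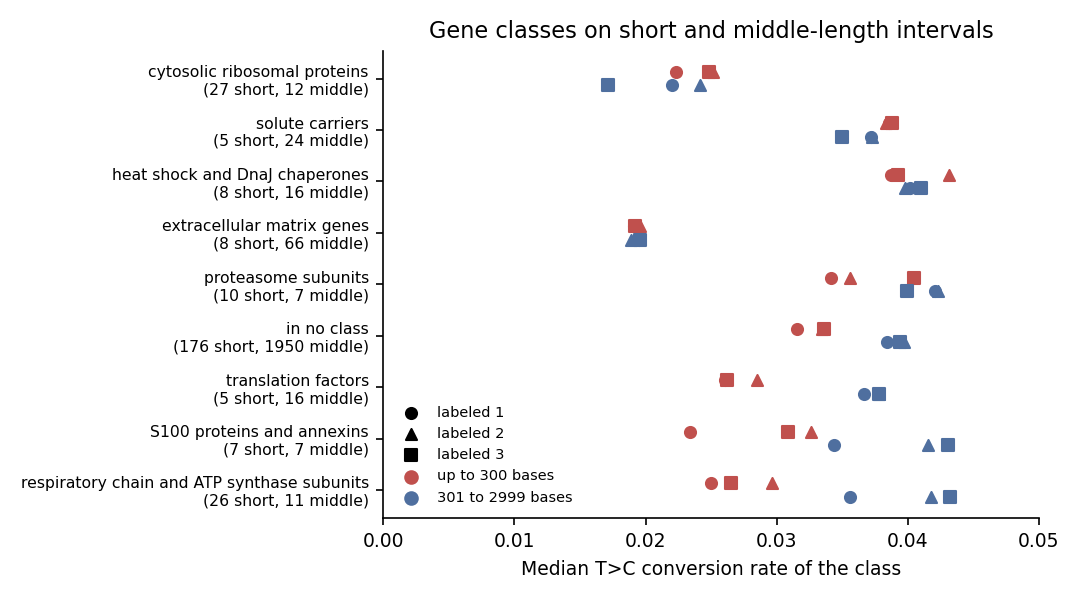
Median T>C conversion rate (x axis) of gene classes with at least 5 deeply covered short and 5 middle-length intervals, with each labeled library as a symbol, short in red and middle-length in blue. Red lies left of blue in all 3 libraries for the respiratory chain, S100 proteins and annexins, translation factors and genes in no class, while ribosomal protein genes and extracellular matrix genes lie low in both colors.

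The sequences of the deeply covered short intervals differed from those of the middle-length ones in ATTTA more than in the polyadenylation hexamer. AATAAA or ATTAAA stood in the last 50 bases of 253 of 284 short (89.1%) and 84.7% of the middle-length intervals. ATTTA, searched on the sense strand over the whole interval, was found in 75 short intervals (26.4%) and in 80.8% of the longer middle-length ones, and in 14.5% of all short intervals. The 75 short intervals with ATTTA had a median rate of 0.0368 and the 209 without it 0.0304, a difference of 0.00645 ± 0.00215 (SD over 3 labeled libraries), positive in each library. Those with ATTTA were longer, with a median of 240 against 165 bases, and richer in T, with 31.7% against 29.4%. Among the intervals of 200 to 300 bases, the difference was 0.00665 ± 0.00331, with medians of 265 against 242 bases, and the part of T content was not tested.

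T content itself went with the rate. The 95 T-poorest short intervals, with 15.9% to 27.9% T, had medians of 0.0256, 0.0285 and 0.0274 in the labeled libraries. The 95 T-richest, with 33.0% to 46.1% T, had 0.0366, 0.0378 and 0.0374. Every labeled library thus had a higher median in the T-rich intervals. Of the middle-length intervals, the 736 T-poorest had a median of 0.0364 and the 736 T-richest 0.0414.

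Within single genes, only 3 had a short interval and a separate middle-length interval with at least 1000 covered T positions each, and in these the short interval was the higher one. For *Ikbip*, the short interval of 109 bases at chr10:90938367-90938475 (plus strand) had 0.0398, 0.0402 and 0.0466 in the labeled libraries. Its middle-length interval of 2041 bases at chr10:90932480-90934520 had 0.0253, 0.0318 and 0.0348. The difference of 0.0115 ± 0.00304 (SD, n = 3) was larger than the spread. For *Rrbp1*, a ribosome binding protein of the endoplasmic reticulum, the short interval exceeded the other by 0.00736 ± 0.00370, and for *Vegfd*, a lymphangiogenic growth factor, by 0.00261 ± 0.00216. With 200 covered T positions, a filter chosen after the data were seen, 18 genes could be compared. The short interval was lower in all labeled libraries for 5 of them and higher in all for 3, and the median difference, short minus middle-length, was −0.00393, −0.00157 and −0.00332 in labeled replicates 1, 2 and 3.

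For the reads, no short interval passed between labeled and unlabeled CF in edgeR with its filter on low counts and without the replicate number as a block. Of 2317 short intervals with enough reads, 0 had more and 0 had fewer reads in the labeled libraries (edgeR's quasi-likelihood test, Benjamini-Hochberg adjusted p below 0.05), and of all 16563 tested the share was 0.0% in either direction. At an unadjusted p below 0.05, 60 were higher and 52 lower, where 469 and 488 of all 16563 were. The counts of short intervals moved when single labeled libraries were left out, with 149 higher and 86 lower without labeled replicate 1. They were 32 and 35 without labeled replicate 2, and 32 and 32 without labeled replicate 3. The counts over all intervals rose to 764 and 866 of 15842 without labeled replicate 1 and fell without labeled replicate 2 or 3. Without unlabeled replicate 1 or 2, which leaves 1 control, the median log2 fold change of the short intervals was 0.0919 or 0.104. With all libraries it was 0.0911. DESeq2 called 5 short intervals higher, among them *Gdf15* and the overlapping pair of *Timp1*, and 1 lower, *Rpl22l1*, where it called 0.109% of all intervals higher and 0.0242% lower, and these genes were named after their values were seen. In these bulk libraries, more cells that express a gene and more RNA per cell cannot be told apart.

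*Gdf15*, a secreted stress cytokine, had 198.6, 117 and 117 CPM relative to counted reads in the labeled and 35.8 and 30.1 in the unlabeled libraries. *Timp1* had 520, 1509 and 927 CPM in the labeled and 124 and 283 in the unlabeled libraries. In both genes the labeled libraries lay above both controls. *Rpl22l1*, a paralog of the ribosomal protein L22, had 67.9, 55.2 and 47.4 against 198 and 151 CPM and lay below both. In edgeR the log2 fold change was 2.22 for *Gdf15* (standard error 0.34, adjusted p = 0.532), 2.39 for *Timp1* (0.59, 0.628) and −1.50 for *Rpl22l1* (0.26, 0.622). With the replicate number as a block, edgeR called all of these genes.

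The short intervals with the most reads relative to counted reads belonged to *Mgp*, *Igfbp7*, *S100a6*, *Rplp1*, *Cd63*, *S100a4*, *Eef1a1*, *Cst3*, *Rack1* and *Fth1*. Since the libraries were made from the 3′ end, a read stands for a transcript end and not for a length of transcript. *Mgp* (ENSMUSG00000030218.4), on 209 bases of its last exon at chr6:136849433-136849641 (minus strand), had 4394, 7699 and 7035 CPM in the labeled and 2556 and 4549 in the unlabeled libraries. *Igfbp7* (ENSMUSG00000036256.15), a secreted protein that binds insulin-like growth factors, had 4891, 5500 and 4199 against 3585 and 5072 CPM. Its interval spans 240 bases at chr5:77497087-77497326 (minus strand) opposite Polr2b. In both genes the groups overlapped, and no change of reads passed in edgeR without a block (adjusted p = 0.824 and 0.989). With the replicate number as a block, *Mgp* passed in edgeR (adjusted p = 4.87e-07) and *Igfbp7* did not (0.0818). No label ties a replicate number to one preparation.

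The T>C rates of these 10 intervals were all below the middle-length median by limma, as were 52.5% of the 284 short and 18.8% of all intervals tested. With 500 or more reads per labeled library on average, the median rate was 0.0260 for 56 short and 0.0362 for 305 middle-length intervals. Of the 10, *Rplp1* and *Cst3*, described above, were the lowest, followed by *Igfbp7* with 0.0161, 0.0161 and 0.0130. *Cd63*, a tetraspanin of endosomes and lysosomes, had 0.0158, 0.0215 and 0.0185. *S100a6* and *S100a4*, calcium binding proteins, had 0.0237 ± 0.00252 and 0.0226 ± 0.000646 (SD, n = 3). The highest of the 10 was *Rack1*, a scaffold protein of the small ribosomal subunit, with 0.0295, 0.0329 and 0.0357. The level of *Cst3* was lowest in replicate 1 of each group, at 426 CPM in labeled replicate 1 against 2002 and 2136 in replicates 2 and 3.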

How the data were processed

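UMI-tools served the authors to extract unique molecular identifiers and, after mapping with SLAM-DUNK 0.4.3 to mm39, to drop duplicates. The origin of the 3′ UTR intervals they counted on is not given in the sources used here. The deposited read, covered T and conversion counts are not normalized. The deposited conversion rate is the fraction of covered T positions that were read as C. The deposited CPM divides the reads by 1 number per library that the tables do not explain, and CPM relative to counted reads, from 1 interval per gene name, are given here.

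Each of the 97442 rows per table was reduced to 40428 distinct intervals. Their T content matched GRCm39 for 40380 of 40380 intervals on its chromosomes, and coordinates are counted from 1. Exons and genes were read from GENCODE for GRCm39. The members, gene classes and tests were chosen with earlier results of these data known. Genes named were the 10 highest and lowest rates, the 10 with the most reads and, per class, the 3 with the most covered T positions, those with changed reads, and up to 5 genes for the comparison within genes. Genes chosen otherwise are marked in the text. Results for some genes are not reported here.

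Rates were compared between groups with a beta-binomial likelihood-ratio test (1 overdispersion, chi-square reference, which is approximate with 5 libraries), and with the middle-length median by limma on log2 odds (pseudocount 0.5, labeled libraries, at least 1000 covered T positions in each). Reads were tested in edgeR (quasi-likelihood, TMM, filterByExpr) and, as an alternative, in DESeq2. Benjamini-Hochberg adjustment ran over all intervals tested. Single values per library were compared with exact permutation tests. The other alternatives were filters on coverage, reads, overlap and gene classes, other summaries and size factors, the replicate number as a block, and each library left out in turn. The tests were tried on simulated data. Where no conversion was seen, the limit is 3 conversions of the covered T positions. Intervals on chromosome 18 are counted but not named. Computations ran in Python 3.11.15 (pysam 0.24.0, numba 0.67.0, scipy 1.17.1, pandas 2.3.3, numpy 2.4.6, matplotlib 3.10.9) and R 4.3.3 (DESeq2 1.42.0, limma 3.58.1, edgeR 4.0.16).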

Additional observations from a re-analysis of the deposited data

How the results depend on the processing

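The median rate difference between short and middle-length intervals was negative in all 20 alternatives run, and of these 15 stayed within 1 SD of −0.00716. Among the 15, leaving out either unlabeled library could not move the value, which uses labeled libraries only. Some of the 15 were added after the data were seen. These kept intervals without overlap of another gene (−0.00693), within a last exon (−0.00709) or with AATAAA or ATTAAA near the end (−0.00760). The difference was −0.00370 with at least 500 covered T positions and −0.00575 from pooled conversions over pooled covered T positions. It was −0.138 in the share of reads with a conversion, which is another unit. After the data were seen, at least 15 covered T positions per read gave −0.00416, and leaving out ribosomal, respiratory chain and matrix genes gave −0.00515. The cause of these shifts was not tested, except that each filter changes which intervals are compared. The share of reads on short intervals was 13.7% with 1 interval per gene name. At 1000 covered T positions, 283 short intervals had a raised rate, because fewer were tested. The 14 intervals above the middle-length median became 3 to 8 with a labeled library left out, and the 245 over all intervals became 50 to 159. The 149 below became 75 with at least 2000 covered T positions, where 127 short intervals were tested and 373 of all 1439 were below. It became 209 with at least 500, where 609 were tested and 750 of all 6193 were below, and 108 to 147 with a library left out.

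For reads, edgeR without a filter on low counts called 3 of 4879 short intervals higher, where it called 10 of all 26333, and DESeq2 called 5 higher and 1 lower. Replicate numbers 1 and 2 occur in both groups, and no label ties a number to one preparation. With the replicate block, 138 short intervals were higher and 89 lower in edgeR, where 5.72% of all intervals tested were called in each direction. As a check of pairing, each library's deviations from its group mean were correlated, which gave 0.765 for number 1 and 0.616 for number 2. The 2 controls mirror each other in such a check. Labeled replicate 3, which has no partner by number, gave 0.457 with unlabeled replicate 2 and −0.457 with unlabeled replicate 1. The check therefore cannot establish a pairing.

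Depth limits the rates to 2.22% of the short intervals, those of well read transcripts. Labeled replicate 3 had the fewest reads.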
